A study of Mus musculus with 6 samples.

Results

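The genes described here are 9 genes associated with lymphatic endothelium, the cells that line lymphatic vessels, taken from arrays of mouse hearts. They are Flt4, Vegfc, Vegfd, Prox1, Lyve1, Pdpn, Mmrn1, Reln and Sema3d. They were chosen by symbol, with earlier results of these data known, and found through the array's annotation as probes with exactly 1 gene symbol. All 9 were found among the 19938 genes with such a probe, each by 1 probe. Hearts of 3 mice with a cenpf knock-out and of 3 wild-type mice were compared, all aged 12 months and untreated, and each heart had an array of its own. The protein encoded by Cenpf, a kinetochore protein, binds microtubules. The sources used here do not give the strain, the sex, the deleted part of Cenpf or any promoter driving the deletion. The replicates are called biological in the labels. Values are deposited log2 expression, so a difference of 1 is a doubling.

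Lymphatic vessels drain fluid and immune cells from the heart muscle. Their endothelium is specified by the transcription factor PROX1 and grows in response to VEGF-C and VEGF-D, secreted ligands that bind the receptor tyrosine kinase VEGFR-3, encoded by Flt4. LYVE-1, a hyaluronan receptor, and podoplanin, encoded by Pdpn, are surface proteins used to recognise these cells. Vegfc, Vegfd and Sema3d encode secreted proteins and were not taken here as markers of these cells. Lyve1 is also made by resident macrophages, Pdpn by mesothelium and some fibroblasts, and Prox1 by heart muscle cells, so in whole heart these transcripts have several sources. In such bulk samples fewer cells of a type and less RNA per cell cannot be told apart.

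The stretch of 150 bases before the annotated start is shown for the 4 genes whose knockout and wild-type values did not overlap, and for Vegfc, the other ligand of VEGFR-3, whose values did. The sequences are from RefSeq on GRCm38.p6, 5′ to 3′ on the gene's strand, which held a promoter for 8 of the 9 genes and none for Lyve1. Capitals mark matches, on either strand, to 6 motifs searched: TATAAA, the GC box GGGCGG, the E-box CACGTG, the GATA form AGATAA, the SOX form AACAAT and the ETS form CCGGAAG. None of the motifs overlapped another in these stretches.
Mmrn1 (chr6:60944167-60944316, + strand): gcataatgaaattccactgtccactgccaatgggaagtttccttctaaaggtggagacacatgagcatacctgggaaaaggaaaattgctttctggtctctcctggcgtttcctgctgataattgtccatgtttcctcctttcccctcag
Vegfd (chrX:164373372-164373521, + strand): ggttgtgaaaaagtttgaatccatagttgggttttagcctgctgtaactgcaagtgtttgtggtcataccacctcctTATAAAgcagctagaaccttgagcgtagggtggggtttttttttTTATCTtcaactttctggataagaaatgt
Reln (chr5:22344706-22344855, - strand): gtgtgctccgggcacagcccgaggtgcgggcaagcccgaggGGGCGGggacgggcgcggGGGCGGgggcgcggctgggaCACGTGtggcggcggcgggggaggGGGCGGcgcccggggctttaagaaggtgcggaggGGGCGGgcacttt
Flt4 (chr11:49609529-49609678, + strand): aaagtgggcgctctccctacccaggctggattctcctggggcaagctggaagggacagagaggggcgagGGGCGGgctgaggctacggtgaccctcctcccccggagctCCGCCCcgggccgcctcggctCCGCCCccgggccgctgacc
Vegfc (chr8:54077382-54077531, + strand): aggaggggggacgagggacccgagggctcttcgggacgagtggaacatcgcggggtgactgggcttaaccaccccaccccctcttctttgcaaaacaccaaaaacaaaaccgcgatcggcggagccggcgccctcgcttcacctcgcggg

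The 4 stretches were of different kinds. Reln and Flt4 were rich in G and C, at 80.0% and 74.0%, with 20 and 12 CG pairs, whereas Mmrn1 and Vegfd held 46.0% and 39.3% G and C with 1 CG pair each. Over all 32851 promoters in the table the median was 54.0%. The GC box matched 4 times in Reln and 3 times in Flt4, and occurred in 28.6% of all promoter stretches of this length. Vegfd held TATAAA, which 7.57% of stretches held, and AGATAA, which 5.65% held, and Reln held CACGTG, which 4.3% held. AACAAT and CCGGAAG, present in 5.31% and 5.52% of stretches, matched none of the 5 shown. No motif of the 6 was common to the 4 genes. A match is only a run of letters in this window and says nothing of a factor's binding.

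The labels and the arrays were checked first. Cenpf read 6.35, 6.10 and 6.68 in the knockout hearts and 8.75, 8.54 and 8.04 in the wild-type hearts (limma, difference -2.07, adjusted p = 0.0286), so the labels hold as far as this probe lies in the deleted part. With wild-type replicate 3 left out it also passed, and with any other 1 array left out it did not (adjusted p from 0.0689 to 0.198). Wild-type replicate 3 lay nearer the knockout hearts, with a root mean square difference of 0.267 from them and of 0.313 from the other wild-type hearts. At an adjusted p under 0.05, 6 of 21789 probes were called (0.0275%), and 293 without wild-type replicate 3. A background level of 6.35 was set from 1212 probes of odorant and pheromone receptors, which heart is not known to use. All 9 genes lay above it in all 6 arrays, as 71.2% of all probes did in their means. Since Prox1, Lyve1 and Pdpn have other sources in heart, their detection does not by itself show lymphatic endothelium. An exact permutation test of 3 against 3 cannot go below p = 0.1, so only the fit across all probes could call a gene.

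Of the 9 genes, 4 read higher in every knockout heart than in any wild-type heart. These were Mmrn1, Vegfd, Reln and Flt4, with fitted differences from 0.62 to 1.13, and the other 5 overlapped between the groups. None of the 9 passed the adjusted threshold (limma, adjusted p from 0.348 to 0.985), and 2, Vegfd and Reln, did without wild-type replicate 3. Leaving out that array raised the calls over all 21789 probes from 6 to 293, so passing there is not particular to these genes. The same holds for every other gene said below to pass without it. At an unadjusted p under 0.05 there were 4 of the 9 genes, all higher in the knockout hearts. Of all probes 4.66% were called in that direction and 9.9% in either. Groups did not overlap, with the knockout higher, for the same 4 genes and for 7.33% of all probes. In the opposite order they did not overlap for 0 of the 9 genes and 7.47% of all probes. The median difference of the 9 genes was 0.19 and 88.9% of them were higher, against -0.01 and 47.9% over all probes tested. Because the 9 genes were chosen with earlier results of these data known, these shares describe the list and test nothing. Leaving out wild-type replicate 1 gave a median of 0.12, and leaving out knockout replicate 2 gave 0.40. When knockout replicate 1 was left out, 5 of the 9 genes (55.6%) were higher, against 47.1% of all probes.

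**Figure D1:**
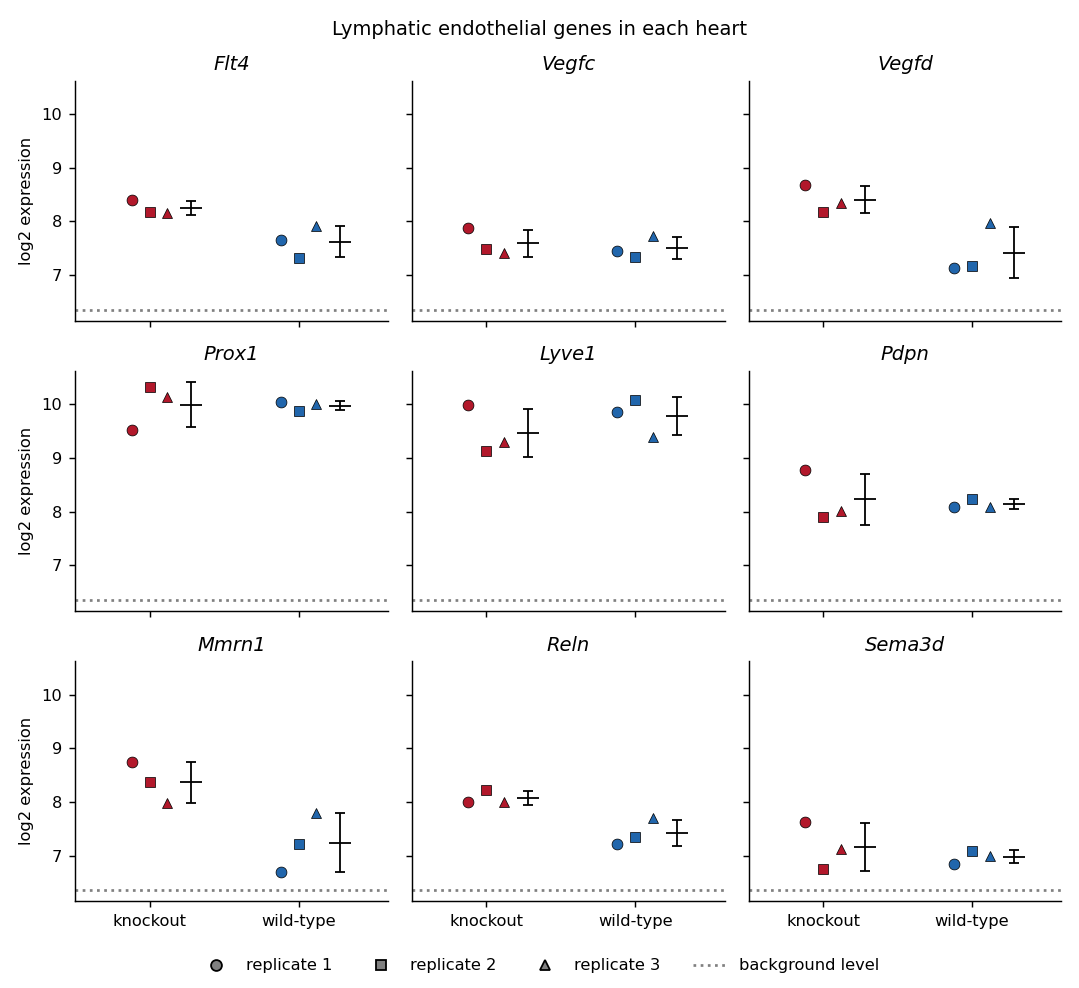
Log2 expression of the 9 genes in each of the 6 hearts (points, shape by replicate), knockout left and wild-type right in each panel, with the mean and SD of 3 hearts beside the points and the background level of 6.35 dotted. In Flt4, Vegfd, Mmrn1 and Reln the 3 knockout points sit above the 3 wild-type points, with wild-type replicate 3 the nearest to them.

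Among the ligands of VEGFR-3, Vegfd and not Vegfc separated the groups. Vegfd read 8.68, 8.18 and 8.35 in the knockout hearts, against 7.13, 7.17 and 7.96 in the wild-type hearts. Wild-type replicates 1 and 2 were low and close together, and replicate 3 stood 0.22 below the lowest knockout heart. The means were 8.40 ± 0.25 in knockout and 7.42 ± 0.47 in wild-type hearts (SD, n = 3 each), a difference of 0.98 with a standard error of 0.23, or 1.97-fold (limma, unadjusted p = 0.00263, adjusted p = 0.368). Without wild-type replicate 3 the difference was 1.25 and passed (limma, adjusted p = 0.0213).

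Vegfc, the principal growth factor of developing lymphatic vessels, read 7.88, 7.48 and 7.41 in the knockout hearts and 7.44, 7.34 and 7.73 in the wild-type hearts. The groups overlapped, with the highest value in knockout replicate 1. The difference was 0.09, with a 95% interval of -0.27 to 0.45 (limma, adjusted p = 0.877). It was -0.06 without knockout replicate 1. Whether the differences of Vegfd and Vegfc themselves differ was not tested.

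Flt4, the receptor of both ligands, read 8.41, 8.18 and 8.16 in the knockout hearts and 7.65, 7.32 and 7.91 in the wild-type hearts. The knockout hearts lay within 0.24 of each other, and the wild-type hearts were more spread. Means were 8.25 ± 0.14 in knockout and 7.63 ± 0.30 in wild-type hearts (SD, n = 3 each), a difference of 0.62 with a standard error of 0.16, or 1.54-fold (limma, unadjusted p = 0.00383, adjusted p = 0.368). Without wild-type replicate 3 it was 0.77 (adjusted p = 0.0633), still short of the threshold.

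The genes of the secreted proteins multimerin 1 and reelin also read higher in every knockout heart, with wild-type replicate 3 the highest of its group. Mmrn1 encodes multimerin 1, a large adhesive glycoprotein also stored in platelets. It read 8.75, 8.37 and 7.97 in the knockout hearts, against 6.69, 7.22 and 7.80 in the wild-type hearts. Its spread was wide in both groups, and knockout replicate 3 lay 0.17 above wild-type replicate 3. The means were 8.36 ± 0.39 in knockout and 7.24 ± 0.55 in wild-type hearts (SD, n = 3 each), a difference of 1.13 with a standard error of 0.28, or 2.18-fold (limma, unadjusted p = 0.00394, adjusted p = 0.368). With 1 array left out its difference was lowest at 0.86 (wild-type replicate 1 left out) and highest at 1.41 (wild-type replicate 3 left out, adjusted p = 0.0543).

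Reln encodes reelin, an extracellular glycoprotein that lymphatic endothelial cells secrete in mice. It read 8.00, 8.22 and 8.00 in the knockout hearts and 7.21, 7.35 and 7.69 in the wild-type hearts. Its knockout values were the most alike of the 9 genes, and its unadjusted p was the smallest of the 9. The means were 8.08 ± 0.13 in knockout and 7.42 ± 0.25 in wild-type hearts (SD, n = 3 each), a difference of 0.66 with a standard error of 0.14, or 1.58-fold (limma, unadjusted p = 0.00152, adjusted p = 0.348). Without wild-type replicate 3 it was 0.80 and passed (adjusted p = 0.0363).

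**Figure D2:**
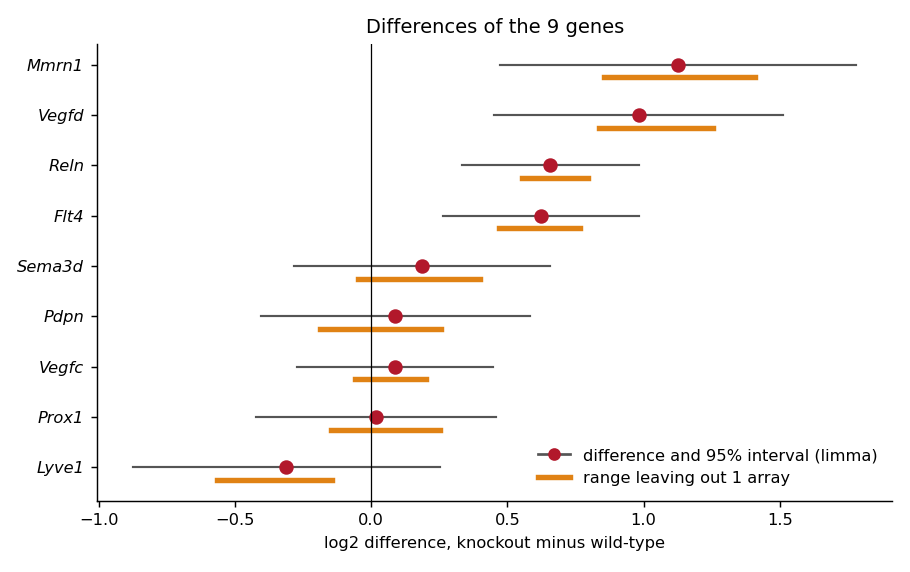
Log2 difference, knockout minus wild-type, of each gene (points) with its 95% interval from limma (thin lines) and the range of the difference when 1 array is left out (thick lines). The intervals of Mmrn1, Vegfd, Reln and Flt4 lie above 0 and those of the other 5 genes span it.

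Of the markers of lymphatic endothelium, Prox1, Lyve1 and Pdpn did not separate the groups, whereas Flt4, Mmrn1 and Reln did. Prox1, the transcription factor that specifies these cells, read 9.53, 10.33 and 10.14 in the knockout hearts and 10.05, 9.88 and 10.00 in the wild-type hearts. Knockout replicate 1 was the lowest of the 6 hearts and knockout replicate 2 the highest. The difference was 0.02, with a 95% interval of -0.42 to 0.46 (limma, adjusted p = 0.985). The sign of so small a value turned without knockout replicate 2 (-0.15), knockout replicate 3 (-0.05) or wild-type replicate 2 (-0.03), and it was 0.25 without knockout replicate 1. The 10 cardiomyocyte markers, averaged as deviations from each gene's mean, were also lowest in knockout replicate 1, at -0.10, against 0.12 and 0.03 in the other knockout hearts and -0.08 to 0.03 in the wild-type hearts. Their part in the Prox1 values was not tested.

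Lyve1 was the single gene of the 9 with a lower mean in the knockout hearts. It read 9.99, 9.14 and 9.29 there and 9.86, 10.09 and 9.40 in the wild-type hearts. The groups overlapped, with knockout replicate 1 among the high values and wild-type replicate 3 among the low ones. The difference was -0.31, with a 95% interval of -0.87 to 0.25 (limma, adjusted p = 0.693). It was -0.57 without knockout replicate 1, and -0.14 when knockout replicate 2 was the one left out.

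Pdpn read 8.78, 7.89 and 8.01 in the knockout hearts and 8.09, 8.24 and 8.09 in the wild-type hearts, with knockout replicate 1 apart from the rest. Its difference was 0.09 (95% interval -0.40 to 0.58, limma, adjusted p = 0.915) and -0.19 without knockout replicate 1. Sema3d, a secreted semaphorin that guides vessels and nerves, read 7.63, 6.74 and 7.12 in the knockout hearts and 6.85, 7.09 and 6.99 in the wild-type hearts. The same heart was the highest. Its difference was 0.19 (95% interval -0.28 to 0.66, limma, adjusted p = 0.781) and -0.05 without knockout replicate 1.

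Mmrn1 had the widest range over the arrays, 2.05, and Vegfc the narrowest, 0.54. Knockout replicate 1 was the highest heart for Mmrn1, Flt4, Pdpn, Vegfc, Vegfd and Sema3d.

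The genes whose values correlated most with the mean of the 9 over the 6 arrays were Cd209d, Grn, Lrp1, Slc14a1 and Itgb5, among 4168 genes above background with a range of at least 0.5. Their Pearson correlations were 0.998, 0.996, 0.995, 0.991 and 0.991. Cd209d, a C-type lectin, read 8.33, 7.04 and 6.99 in the knockout hearts and 5.33, 5.86 and 6.56 in the wild-type hearts. Grn, which encodes progranulin, read 11.38, 10.98 and 11.03 in the knockout hearts and 10.63, 10.71 and 10.92 in the wild-type hearts. In both, as in the mean of the 9 genes, knockout replicate 1 was the highest and wild-type replicate 3 the highest of its group. This likeness follows from the choice, since both were picked for their correlation over 6 arrays among 4168 genes.

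**Figure D3:**
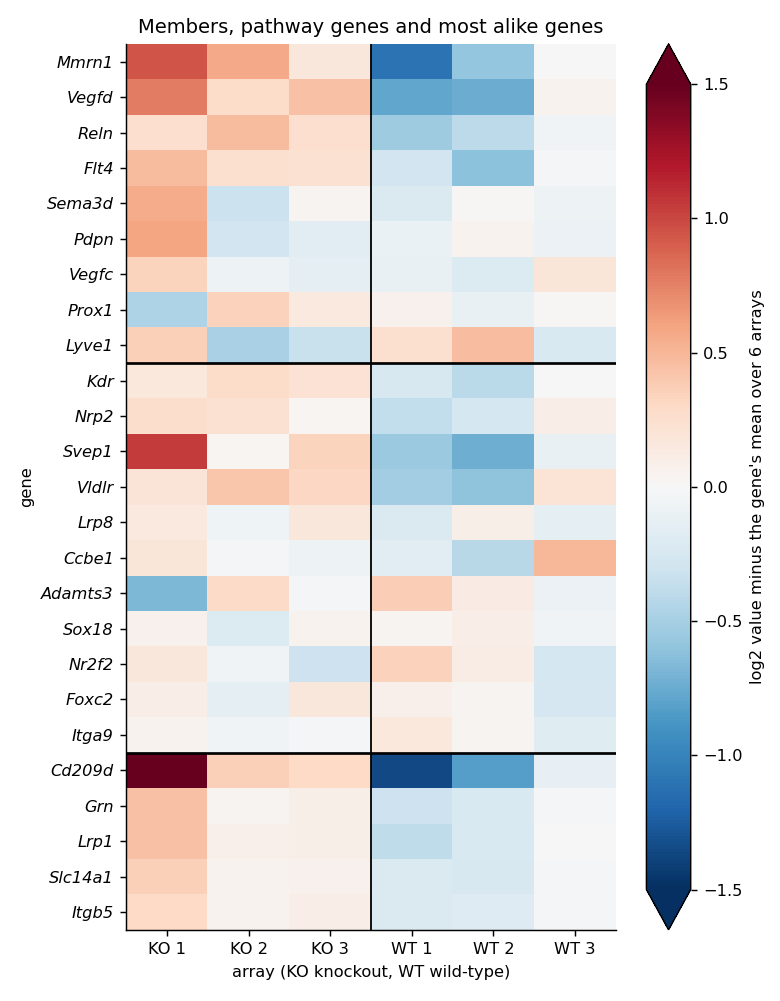
Log2 value of each gene minus its mean over the 6 arrays, knockout hearts left and wild-type hearts right, colour cut at 1.5 in size. Rows are the 9 genes (top), 11 pathway genes (middle) and the 5 genes most alike to the mean of the 9 (bottom). The top 4 rows are above their means in all 3 knockout hearts.

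Of 67 other genes of lymphatic development and signalling, 63 had a single-symbol probe, and 60 of these lay above background in at least 1 group. By limma 0 passed the adjusted threshold, and at an unadjusted p under 0.05 there were 8 higher and 0 lower, beside 4.66% and 5.24% of all probes. Without wild-type replicate 3 there was 1 that passed, Vldlr (adjusted p = 0.0231). Their median difference was 0.07 and 68.3% were higher. Groups did not overlap for 9 genes, all higher in the knockout hearts, beside 7.33% of all probes higher and 7.47% lower.

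Svep1 had the largest difference of these genes. It encodes a large matrix protein needed for lymphatic vessel remodelling in mice. It read 9.78, 8.77 and 9.06 in the knockout hearts and 8.18, 8.00 and 8.62 in the wild-type hearts, a difference of 0.94 ± 0.26 (standard error, limma, adjusted p = 0.391). The lowest knockout heart stood 0.15 above the highest wild-type heart.

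Among receptors that act beside VEGFR-3, Kdr, encoding VEGFR-2, did not overlap between the groups. It read 10.34, 10.45 and 10.40 in the knockout hearts and 9.94, 9.78 and 10.17 in the wild-type hearts, a difference of 0.43 (limma, adjusted p = 0.391). Nrp2, a neuropilin that binds VEGF-C with VEGFR-3, read 9.29, 9.26 and 9.06 in the knockout hearts and 8.66, 8.77 and 9.13 in the wild-type hearts, a difference of 0.35 with overlapping groups (adjusted p = 0.486).

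Of the reelin receptors, Vldlr read 11.40, 11.63 and 11.52 in the knockout hearts and 10.68, 10.60 and 11.41 in the wild-type hearts. Wild-type replicate 3 reached the lowest knockout value, and the difference was 0.62 (limma, adjusted p = 0.444). Lrp8, the other reelin receptor, differed by 0.17 with overlap (adjusted p = 0.650).

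The genes that process VEGF-C or act in PROX1 control overlapped between the groups. Ccbe1 and Adamts3, which act in activating VEGF-C, differed by 0.06 and -0.28 (limma, adjusted p = 0.943 and 0.719). Adamts3 had 16 probes, and its value is that of the probe of highest mean only. Sox18 and Nr2f2, transcription factors upstream of Prox1 in mice, differed by -0.06 and -0.13 (adjusted p = 0.883 and 0.832). Foxc2 and Itga9, which act in forming lymphatic valves, differed by 0.09 and -0.01 (adjusted p = 0.834 and 0.986). Klf2, a flow-responsive transcription factor, and Hhex, a homeobox factor, differed by 0.36 and 0.35 (adjusted p = 0.50 and 0.579). The chemokine Ccl21a was not analysed here.

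Genes listed as markers of blood endothelium, which also lines vessels in these samples, did not move one way. Kdr, with a difference of 0.43, was counted in the signalling list and not in this one. Of 15 genes, all above background, 9 were higher and 6 lower with a median difference of 0.09, and groups did not overlap for 3 higher and 2 lower, beside 7.33% and 7.47% of all probes. Cldn5, a tight junction protein, read 9.62, 9.57 and 9.54 in the knockout hearts and 8.62, 8.92 and 9.31 in the wild-type hearts, a difference of 0.62 (limma, adjusted p = 0.379, and 0.037 without wild-type replicate 3). Plvap, a protein of endothelial diaphragms, differed by -0.41 (adjusted p = 0.472). Summed on the linear scale, the 15 markers ran from 23198 to 25000 in the knockout hearts and from 23879 to 24184 in the wild-type hearts. As deviations from each gene's mean, the 15 markers averaged 0.13, -0.02 and -0.03 in the knockout hearts and -0.07, -0.04 and 0.03 in the wild-type hearts. Subtracting each array's mean of them, a step chosen after seeing the data, could therefore shift differences only a little. With it Mmrn1, Vegfd, Reln and Flt4 differed by 1.07, 0.93, 0.60 and 0.57, without overlap. Of all probes, 35.3% were then higher, against 47.9% before, and their share without overlap is not given for this step. The part of blood endothelium in these differences was not tested.

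Some markers of other cells moved with the 4 separated genes, and their part in these differences was not tested. Of 16 resident macrophage markers, all above background, 10 were higher and 6 lower, with a median difference of 0.13, or -0.08 without knockout replicate 1. Of these genes 3 of 1 family, Cd209f, Cd209d and Cd209g, did not overlap between the groups, with differences of 2.01, 1.54 and 0.78 (limma, adjusted p = 0.368, 0.379 and 0.446). Over all probes, 7.33% did not overlap with the knockout higher. All other genes of the list overlapped, among them the lectin genes Mrc1 with a difference of 0.17 and Mgl2 with -0.67, both chosen after their values were seen. Without wild-type replicate 3 the gene of this list that passed was Cd209f (adjusted p = 0.0192), and of the fibroblast markers Dpep1 (adjusted p = 0.0474). Summed on the linear scale, the list ran from 9869 to 18355 in the knockout hearts and from 10520 to 13130 in the wild-type hearts, which overlap. Knockout replicate 1 was the highest for this list, at 0.60 above the mean of all arrays, against -0.19 and 0.01 in the other knockout hearts and -0.45 to 0.07 in the wild-type hearts. Fibroblast markers were highest in the same heart, at 0.31 against -0.25 and -0.17 in the other knockout hearts and -0.16 to 0.19 in the wild-type hearts, as knockout replicate 1 also was in Pdpn. Of the 11 fibroblast markers, all above background, 2 were higher and 9 lower, with sums of 22557 to 32681 in the knockout hearts and 24532 to 29712 in the wild-type hearts.

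Adipocyte markers ran the other way. Of 7 measured, 6 were lower in the knockout hearts, so 14.3% were higher, against 47.9% of all probes. The sums of 1234 to 1285 in knockout and 1519 to 3347 in wild-type hearts did not overlap. Car3 was the highest gene of the list in wild-type replicates 1 and 2 and weighed most in their sums. Plin1 and Retn differed by -0.33 and -0.85 (limma, adjusted p = 0.439 and 0.473). Car3, an adipose and muscle carbonic anhydrase, read 7.72, 7.46 and 6.95 in the knockout hearts and 10.92, 9.66 and 8.42 in the wild-type hearts (limma, difference -2.29, adjusted p = 0.368), and Lep lay below background. Car3 and Adipoq passed without wild-type replicate 3 (adjusted p = 0.0232 and 0.0388). Of 5 atrial muscle markers 4 were higher, led by Myl7 with 0.53 and Nppa with 0.71 (adjusted p = 0.454 and 0.485), while Sln and Bmp10 lay below background. The atrial sums were 6065 to 10496 in the knockout hearts and 4312 to 7041 in the wild-type hearts. Nppa, whose values overlapped between the groups, was the highest gene of this list in every heart and weighed most in the sums.

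Platelets, which also hold multimerin 1, were represented by 5 measured markers, 2 higher and 3 lower, with no separated gene. Ppbp read 9.45, 9.55 and 9.57 in the knockout hearts and 8.23, 8.69 and 9.66 in the wild-type hearts (limma, difference 0.66, adjusted p = 0.526, and 0.0312 without wild-type replicate 3). The platelet sums were 1902 to 2360 in the knockout hearts and 1552 to 2245 in the wild-type hearts. Of 9 lymphocyte markers 5 lay below background, Cd79a, Ms4a1, Cr2, Cd3d and Cd2, and the median difference was 0.05. Of 11 mesothelial markers 4 were higher and 7 lower, with a median of -0.09, sums of 1433 to 1915 in the knockout hearts and 1672 to 1786 in the wild-type hearts, and Muc16 below background. The 10 cardiomyocyte markers had a median difference of 0.04.

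**Figure D4:**
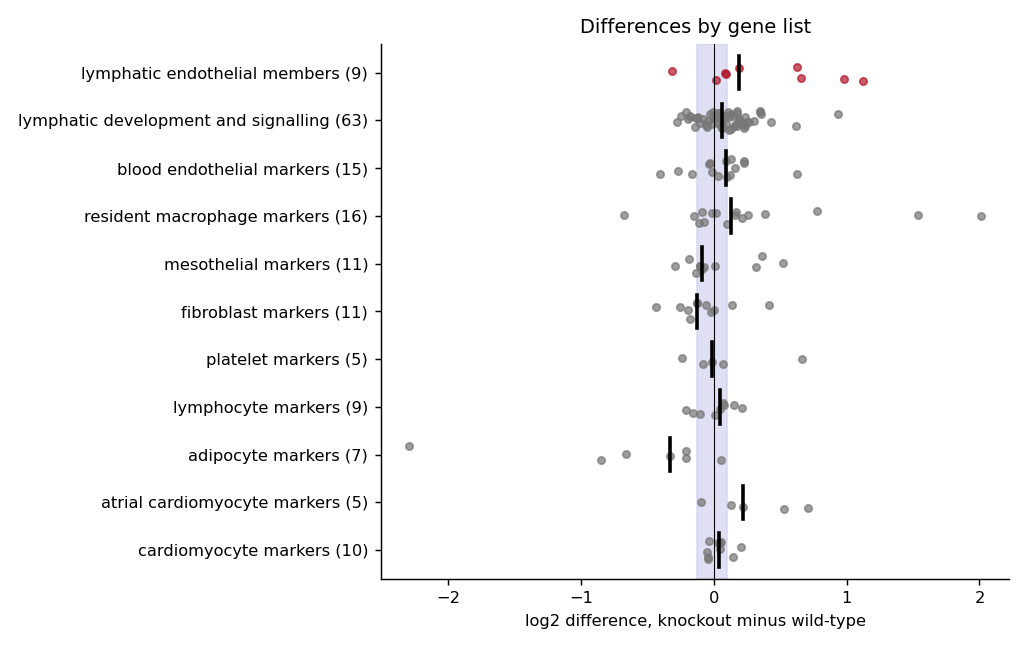
Log2 difference, knockout minus wild-type, of each gene (points) by list, with the number of genes measured in parentheses, the median as a bar and the interquartile range of all 21789 probes shaded (-0.12 to 0.10). The 4 separated lymphatic endothelial genes lie from 0.62 to 1.13, right of the shaded band.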

How the data were processed

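Total RNA of 6 hearts was labelled with biotin and hybridised to 1 mouse gene array each, per the labels' protocols. The deposited values are log2 expression made with RMA, and Partek 6.6 is also named, per the submitters' processing notes; for settings, probe annotation and build the sources used here say nothing. RMA makes arrays alike in distribution, so a shift of most genes would not show; array medians were 6.92 to 6.97 over 35556 probes, and nothing further was normalized. An array has no read depth, so precision rests on how many arrays there are.

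Of the probes, 21789 had 1 gene symbol, 1621 had several and 12146 were unnamed here. Of each member's 20 neighbours in probe order, 18 to 20 lay on its chromosome in RefSeq. The background level is the 95th percentile of the mean levels of probes named Olfr or for vomeronasal receptors. The test was limma's (version 3.58.1, R 4.3.3, lmFit and eBayes), two-sided, with Benjamini-Hochberg adjustment over 21789 probes and a threshold of 0.05. The same fit was also run on simulated data. How often it finds differences of the size described here is not reported. A gene with several probes was represented by the one of highest mean. The members and the 10 other lists were chosen with earlier results of these data known.

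Named genes are the 9 members, Cenpf, the 6 pathway genes of largest difference above background, 11 fixed pathway genes, up to 3 of smallest p per marker list, and the 5 most alike genes. The alternatives were 3 normalizations and a 4th added after seeing the data, a filter, another probe family, another probe rule, 2 variance settings, the replicate block and leaving out each array. Figures were drawn with matplotlib 3.10.9.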

Additional observations from a re-analysis of the deposited data

How the results depend on the processing

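Mmrn1, Vegfd, Reln and Flt4 kept their direction under each of 16 alternatives, between 0.86 and 1.41, 0.84 and 1.25, 0.55 and 0.80, and 0.47 and 0.77, and passed the adjusted threshold in 0, 1, 1 and 0 of them, with adjusted p from 0.0213 to 0.769. The number of the 9 genes called was 0, and 0 to 2 with 1 array left out, the 2 being Vegfd and Reln without wild-type replicate 3. Their median difference ranged from 0.12 to 0.40 with 1 array left out. The number of all probes called, 6, was 1 with every probe of the table tested, 22 with trend and robust variance, 33 with array weights, 11 with the replicate block, 14 with the blood endothelial mean subtracted (chosen after seeing the data), and 1 to 293 with 1 array left out. Cenpf differed by -2.27 to -1.92 with 1 array left out, and passed there only without wild-type replicate 3; with every probe tested the adjusted p of its difference of -2.07 was 0.281. The direction turned for Pdpn with array weights (-0.058) and without knockout replicate 1 (-0.19, against 0.26 without knockout replicate 2), for Prox1 with the blood endothelial mean subtracted (-0.035) and without knockout replicate 2 (-0.15), knockout replicate 3 (-0.052) or wild-type replicate 2 (-0.030), against 0.25 without knockout replicate 1, and for Vegfc (-0.058, against 0.20 without wild-type replicate 3) and Sema3d (-0.047, against 0.40 without knockout replicate 2) without knockout replicate 1. The cause of these changes was not tested. For Cenpf the unadjusted p also rose when every probe was tested, from 6.56e-06 to 6.09e-05 (limma). The labels state no pairing of the hearts by replicate number. Same-numbered deviations correlated at -0.11, -0.16 and -0.003, and the block called 0 of the 9 genes, as did the fit without it. With 3 hearts a group these values cannot decide whether the hearts were paired. Of the 9 genes all lay above background, but 3 hearts a group left intervals of 0.65 to 1.31 in width.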
